A study of Homo sapiens with 6 samples.

Results

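The neighbourhoods of 8 genes that encode transcription factors of the basal epidermis, TP63, TFAP2A, TFAP2C, RUNX1, SOX9, KLF5, MYC and SNAI2, were examined for binding by FOSL2 and JUNB, which are subunits of the dimeric transcription factor AP-1. The genes were chosen by name, with earlier results of these data known. Bound regions were assigned to a gene if they touched its RefSeq gene body or the 100 kb on either side. These 8 of 19974 protein-coding genes held 130 of 75703 FOSL2 regions and 83 of 40061 JUNB regions, or 213 of 115764 in all. Binding had been measured by chromatin immunoprecipitation and sequencing in HaCaT, a human keratinocyte line that arose by spontaneous immortalisation, with 3 libraries for each factor. Both groups used the same line in serum-containing medium, and the labels name no treatment and no genetic change. The groups differed in the antibody, from CST for FOSL2 and from Active Motif for JUNB. HaCaT cells grow as a culture without the layers of skin and carry an aneuploid genome, and the copy number of the 8 loci was not analysed here. Expression was not measured, so the values show where the factors were found and not whether a gene was transcribed.

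Each factor had 1 deposited list of regions that stood for its 3 libraries together. No spread between libraries and no sequencing depth could therefore be given, and no value below has a test. The strength of a region is the fold enrichment that the authors deposited, a linear ratio between the signal at the region and its background. Because antibodies differ, fold enrichment was ranked only within a list and its level was not compared between the factors. Regions of the 2 factors that overlapped by 1 bp or more were called shared.

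Keratinocytes of the basal layer divide, anchor the epidermis to the basement membrane and supply the cells that later differentiate. TP63 defines this lineage, and AP-2 proteins, RUNX1, KLF5 and SOX9 act with it at epithelial enhancers or in the stem cells of the hair follicle. AP-1 binds the same class of enhancers and relays growth and stress signals, with subunits that change as keratinocytes leave the basal layer.

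The members differed in size and surroundings. TP63 on chromosome 3 (chr3:189596746-189897276, hg38) and RUNX1 on chromosome 21 (chr21:34787801-35049302) are long genes of 301 and 262 kb, while the other 6 span between 3.83 and 23 kb. With 100 kb added on each side, the windows ran from 204 to 501 kb. The windows of TP63, RUNX1, KLF5 and TFAP2C contained all or part of other protein-coding genes, and 8 FOSL2 and 3 JUNB summits lay inside such a neighbour.

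Annotated transcription starts were set beside the regions first. The RefSeq promoter table of GRCh38.p14, whose chromosome coordinates are those of hg38, held 6 starts of 4 members, TP63, TFAP2A, KLF5 and RUNX1, and TFAP2C, SOX9, MYC and SNAI2 had no entry. Among all 34961 windows of the table, from 250 bases before a start to 50 after it, 16.4% overlapped a FOSL2 region and 17.2% a JUNB region. Of the 6 member windows, 2 overlapped a FOSL2 region and 2 a JUNB region. The outer TFAP2A start had both, the internal RUNX1 start had FOSL2 alone, and the inner KLF5 start had JUNB alone. The outer KLF5 start had neither and is shown for contrast. The 250 bases before each of these 4 starts are given 5′ to 3′ on the strand of the gene, with capitals on matches to any of 9 searched motifs.
TFAP2A outer start, chr6:10419660-10419909, minus strand: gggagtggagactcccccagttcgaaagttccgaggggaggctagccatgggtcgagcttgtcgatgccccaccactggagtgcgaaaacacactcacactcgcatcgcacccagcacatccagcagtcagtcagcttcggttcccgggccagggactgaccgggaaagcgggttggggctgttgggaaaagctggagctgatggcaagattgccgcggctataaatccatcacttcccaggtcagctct
RUNX1 internal start, chr21:34888700-34888949, minus strand: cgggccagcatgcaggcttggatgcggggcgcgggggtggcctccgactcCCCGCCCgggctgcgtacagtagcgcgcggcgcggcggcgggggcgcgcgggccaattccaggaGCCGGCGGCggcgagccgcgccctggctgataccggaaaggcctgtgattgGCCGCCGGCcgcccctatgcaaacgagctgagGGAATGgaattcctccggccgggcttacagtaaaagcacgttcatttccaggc
KLF5 inner start, chr13:73058755-73059004, plus strand: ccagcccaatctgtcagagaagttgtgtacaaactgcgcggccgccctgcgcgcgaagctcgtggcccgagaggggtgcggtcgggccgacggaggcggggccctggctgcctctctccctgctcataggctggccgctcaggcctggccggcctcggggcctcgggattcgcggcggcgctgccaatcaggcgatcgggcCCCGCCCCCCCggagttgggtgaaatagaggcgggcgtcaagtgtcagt
KLF5 outer start, chr13:73054726-73054975, plus strand: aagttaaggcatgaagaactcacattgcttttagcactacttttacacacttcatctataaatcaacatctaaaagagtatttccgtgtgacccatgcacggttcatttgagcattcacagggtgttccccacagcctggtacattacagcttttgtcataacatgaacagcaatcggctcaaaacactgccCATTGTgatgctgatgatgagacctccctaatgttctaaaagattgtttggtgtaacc

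The 9 motifs were searched on both strands of the 250 bases before each start, and matches to different motifs could overlap. The AP-1 site TGAGTCA was in 4.17% of all promoters and in 0 of the 6 member starts, and the related TGACGTCA was in 1.65% and also in 0. The AP-2 site GCCNNNGGC was in 19.8% of all promoters and, among the members, at the RUNX1 start alone, where it occurred at 136 and 85 bases before the start. The KLF site GGGNGGG, in 51.7% of all promoters, was at 3 member starts, the inner KLF5 start, the RUNX1 start and the internal TFAP2A start. The TEAD site GGAATG (11.9% of all promoters) was at the RUNX1 start, and the SOX site ACAATG (9.25%) was at the outer KLF5 start. The RUNX site TGTGGT (11%) and the E-boxes CACGTG (6.35%) and CAGGTG (17.5%) were at 0 of the 6. The outer TFAP2A sequence therefore has no capitals, although regions of both factors covered this start. A match is a description of letters, and their lack says only that these letters are not in this window.

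At the outer TFAP2A start, the FOSL2 region (fold enrichment 9.64) and the JUNB region (7.05) covered the start, but their summits lay 611 and 609 bp from it, inside the gene. The internal TFAP2A start overlapped no region, and its nearest summits were 5.76 kb away for FOSL2 and 6.66 kb for JUNB. At the internal RUNX1 start, the FOSL2 region (7.41) had its summit 525 bp away, and the JUNB region it shared (4.03, summit 546 bp away) stopped short of the window. The inner KLF5 start was the one with a summit almost on it, a JUNB region of 3.05 at 42 bp. The outer KLF5 start had its nearest summits at 1254 bp for FOSL2 and 1253 bp for JUNB. TP63 had 1 start in the table, at position 189631389, with the nearest FOSL2 summit 10.6 kb away (6.02, unshared) and the nearest JUNB summit 58.8 kb away. TP63 also has an internal start for its short isoform, the main one in basal keratinocytes, whose position was not used here.

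All 8 members had regions of both factors and at least 1 shared region. Such regions were common at this distance, since 96.4% of all protein-coding genes had a FOSL2 region, 90.9% had a JUNB region, and 87.4% had a shared region of either list. TP63 had 31 FOSL2 and 21 JUNB regions, and RUNX1 had 28 and 20. KLF5 had 15 and 11, MYC 15 and 8, TFAP2A 14 and 7, TFAP2C 11 and 10, SNAI2 9 and 3, and SOX9 7 and 3. TP63 and RUNX1, the long genes, thus held the most regions, and SNAI2 and SOX9 the fewest.

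Per length, the order changed. For FOSL2, MYC was densest at 72.3 regions per Mb, above 94.3% of all protein-coding genes, and KLF5 followed at 67.4. TFAP2A, TP63 and RUNX1 lay close together at 62.8, 61.9 and 60.7 regions per Mb, TFAP2C had 52.4 and SNAI2 44.2. SOX9 was lowest at 34.1, above 48.6% of all genes. For JUNB, KLF5 led with 49.4 regions per Mb, ahead of TFAP2C with 47.6, RUNX1 with 43.3, TP63 with 42.0, MYC with 38.6 and TFAP2A with 31.4. SNAI2 and SOX9 were last at 14.7 and 14.6 regions per Mb, below the JUNB density of most genes. Over the 8 genes, the median density was 61.3 regions per Mb for FOSL2 and 40.3 for JUNB. Over all protein-coding genes it was 34.6 and 19.7. Counted over the windows together, the loci held 58.2 FOSL2 regions per Mb where the whole genome held 25, and 37.1 JUNB regions per Mb where it held 13.2. Without replicate values, no error separates neighbours in this order, and MYC and KLF5, with 15 FOSL2 regions each, are ordered by window length alone.

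**Figure D1:**
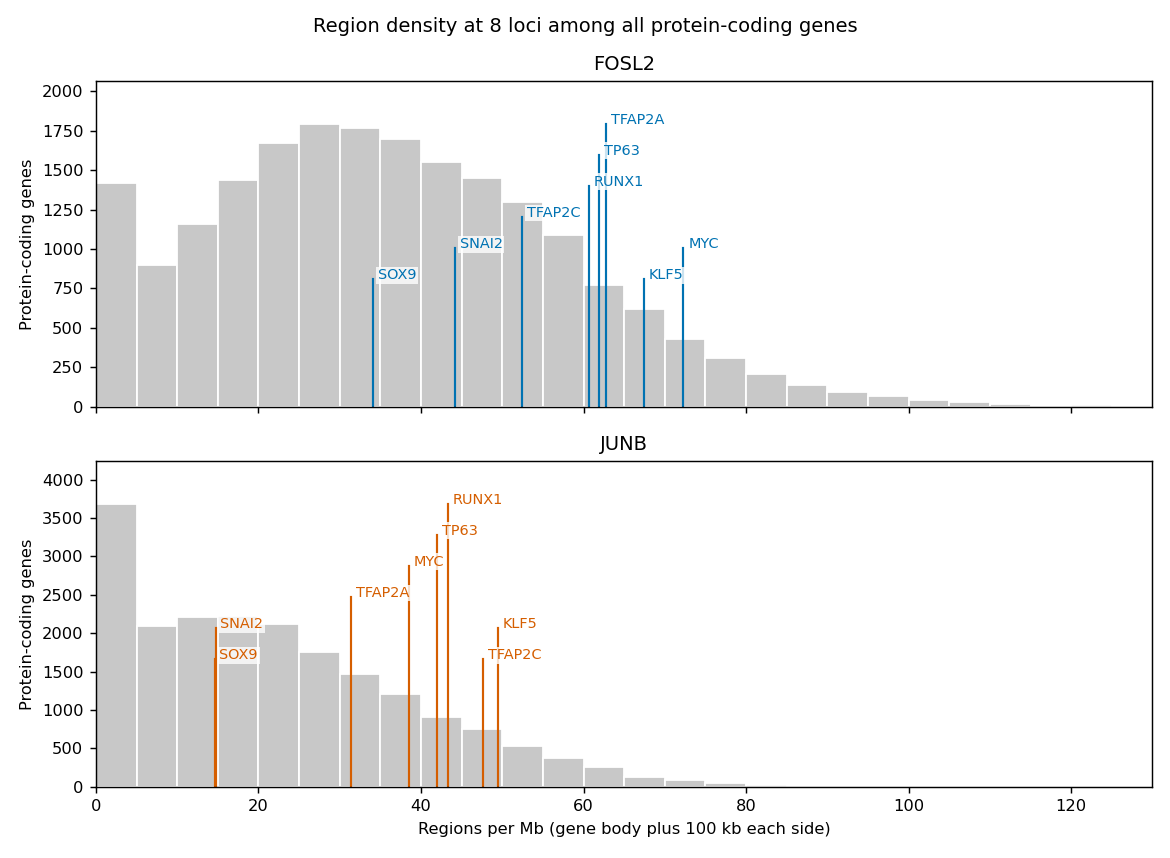
Histograms of regions per Mb (x axis, gene body plus 100 kb on each side) over all protein-coding genes (y axis, number of genes), for FOSL2 above and JUNB below; a coloured line, whose height has no meaning, marks each of the 8 genes. SOX9, at 34.1 FOSL2 and 14.6 JUNB regions per Mb, lies within the bulk of the genes in both panels, while MYC at 72.3 is furthest right for FOSL2 and KLF5 at 49.4 for JUNB.

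The 2 factors met at 65 places. Of the 130 FOSL2 regions, 65 were shared, or 50% (95% Wilson interval 41.5 to 58.5%, counting error only), beside 41.1% of the whole list. Of the 83 JUNB regions, 65 were shared, or 78.3% (68.3 to 85.8%), beside 78.5% of the whole list. By locus, every JUNB region was shared at TFAP2A (7), SOX9 (3) and SNAI2 (3), and 17 of 21 were at TP63, 16 of 20 at RUNX1, 7 of 10 at TFAP2C, 6 of 8 at MYC and 6 of 11 at KLF5. KLF5 was therefore the locus with the most JUNB regions of its own, 5. Shared FOSL2 regions had a median fold enrichment of 7.60 and unshared ones 3.81, and the same split in the whole list was 7.85 and 4.4. For JUNB the medians were 5.56 and 3.30 at the loci and 5.31 and 3.45 in the list. Shared FOSL2 regions were also wider, with a median of 957 bp against 493 bp, as in the whole list (887 and 486 bp).

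Within the shared pairs, the summits of the 2 factors were a median of 30 bp apart (quartiles 10 and 67 bp), and the widest gap was 158 bp, at a KLF5 region 85.9 kb beyond the gene. In 39 of the 65 pairs (60%) the summits were within 50 bp, beside 66.9% of all pairs. The log2 fold enrichment of both factors rose together across the 65 pairs (Pearson 0.80, Spearman 0.81), as it did across all 31150 shared FOSL2 regions (0.72 and 0.72). These are descriptions across regions of 1 pair of lists from 1 line. TFAP2A pairs sat at the upper end for both factors, and MYC held both the lowest FOSL2 value of the pairs, 2.31, and the highest, 12.7.

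**Figure D2:**
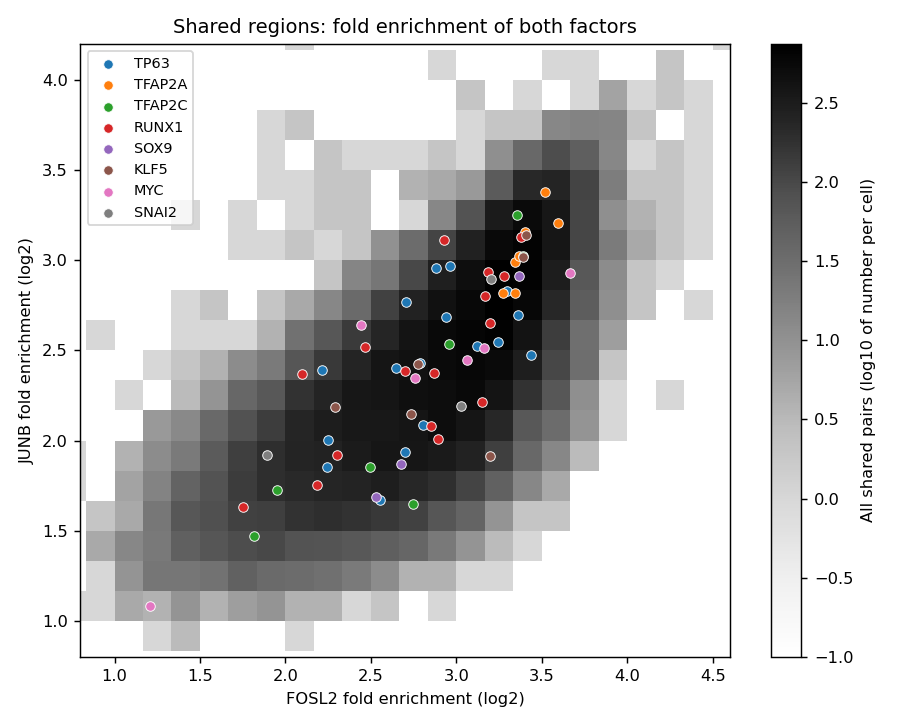
Fold enrichment of FOSL2 (x axis, log2) and of JUNB (y axis, log2) at the 65 shared regions of the 8 loci, 1 coloured point each, over the density of all shared pairs (grey, log10 of the number per cell). The members lie along the grey cloud (Pearson 0.80, beside 0.72 for the list), with the TFAP2A points near its upper right.

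Placed along the genes, the regions lay mostly away from the gene ends. Of 130 FOSL2 summits, 5 (3.85%) were within 1000 bp of an end of a member gene, and 6.78% of all FOSL2 summits were that close to an end of a protein-coding gene. For JUNB it was 5 of 83 (6.02%) and 12.8%. The share at the loci depends on the 100 kb flanks, and the length of sequence near ends was not taken into account. These shares therefore do not show whether ends were bound less at the loci. Inside the genes lay 38 FOSL2 and 31 JUNB summits, and beyond them 87 and 47. Of the JUNB regions inside the genes 21 of 31 were shared (67.7%), and of those outside 41 of 47 (87.2%), a difference that was not tested. The same split over the whole JUNB list is not given, so the difference cannot be called particular to these loci. KLF5 and RUNX1 held 4 each of the 10 unshared JUNB regions inside, and TP63 the other 2. FOSL2 fold enrichment ran from 2.10 to 10.4 inside the genes, from 4.11 to 9.64 at their ends, from 2.31 to 11.4 on the lower-coordinate side and from 2.10 to 12.7 on the other. For JUNB the ranges were 2.18 to 8.74, 2.55 to 7.05, 2.12 to 10.4 and 2.40 to 9.24.

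**Figure D3:**
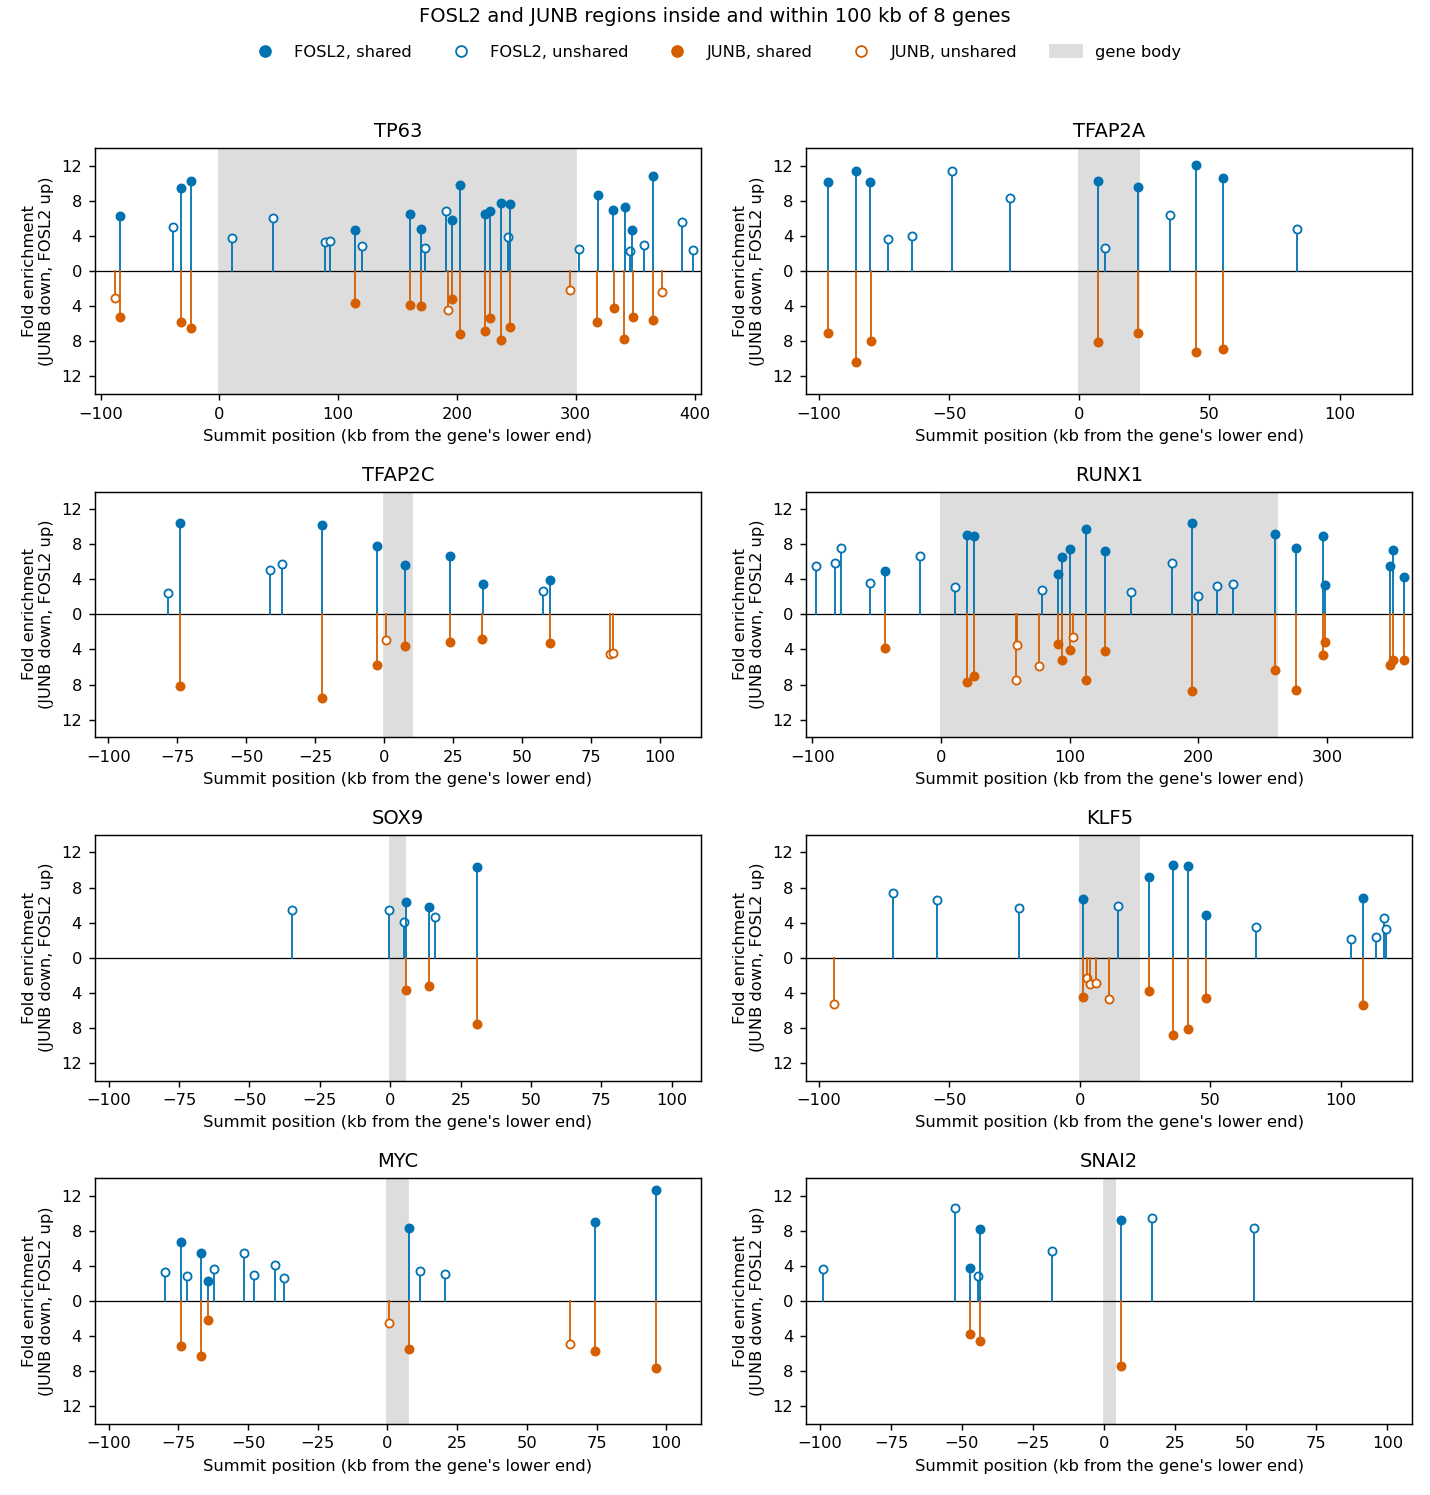
Summits of all regions at the 8 loci: position in kb from the lower-coordinate end of the gene (x axis) and fold enrichment (y axis, FOSL2 upwards and JUNB downwards), with shared regions filled, unshared ones open and the gene body grey. TP63 and RUNX1 carry most of their regions inside the gene, which also makes up most of the window (301 of 501 kb and 262 of 462 kb). At TFAP2A and SNAI2 tall open FOSL2 symbols stand without a JUNB partner.

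TP63, the lineage factor, had 17 FOSL2 and 11 JUNB summits inside the gene and 14 and 10 beyond it. FOSL2 fold enrichment ran from 2.27 to 10.8 with a median of 5.87, and JUNB from 2.18 to 7.84 with a median of 5.28. The strongest FOSL2 region (chr3:189961219-189962060, 10.8, JUNB 5.56) lay 64.4 kb beyond the higher-coordinate end, inside the neighbouring gene P3H2, a collagen prolyl hydroxylase. The next were chr3:189572054-189573099 (10.3), 24.2 kb below the gene, and chr3:189799150-189800080 (9.82), inside it. JUNB was highest at chr3:189833887-189834727 (7.84, FOSL2 7.79), inside the gene, then at chr3:189937226-189938405 (7.78) and chr3:189799362-189799833 (7.11).

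TP63 held the most shared regions within any 50 kb of the 8 loci. Between positions 189792774 and 189841699, a stretch of 48.9 kb, lay 6 shared regions, with FOSL2 fold enrichment of 5.87, 9.82, 6.52, 6.89, 7.79 and 7.67. In the whole list, 2.21% of shared FOSL2 regions began a 50-kb stretch with at least as many. The TP63 stretch was the fullest of those begun at its 17 shared regions, so this share is not the rate for a locus. MIR944, a microRNA within TP63, lies in this stretch, 4.10 kb from the nearest FOSL2 summit. No summit was within 1000 bp of either end of TP63. The nearest FOSL2 regions, of 3.81 at 10.3 kb from the lower-coordinate end and 2.55 at 2.10 kb from the other, were unshared. For JUNB the nearest were a region of 6.49 at 24.2 kb and one of 2.18 at 5.35 kb.

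TFAP2A, an AP-2 factor of the epidermis and neural crest, had the highest median fold enrichment of the 8 loci for both factors. Its 14 FOSL2 regions ran from 2.63 to 12.1 with a median of 9.90, above the median of 97.9% of genes that had regions, and 7 of them were in the top 10% of the list. Its 7 JUNB regions ran from 7.05 to 10.4 with a median of 8.12, above 96.8% of genes, and the weakest of them was stronger than the list median of 4.79. The 3 highest FOSL2 regions were chr6:10440963-10442016 (12.1, JUNB 9.24) above the gene, chr6:10310542-10311811 (11.4, JUNB 10.4) 85.7 kb below it, and chr6:10347438-10348339 (11.4), which had no JUNB region. JUNB was next highest, after its regions at the first and the second of these, at chr6:10451708-10452463 (8.92). The region nearest the lower-coordinate end was also strong, with 10.3 for FOSL2 and 8.12 for JUNB at 7.16 kb inside the gene. The locus is dense in non-coding genes, and the strongest FOSL2 region lay within the non-coding gene MIR5689HG.

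TFAP2C, the second AP-2 gene and a driver of early surface ectoderm (chr20:56629306-56639283), had 11 FOSL2 and 10 JUNB regions, beside 14 and 7 at TFAP2A. FOSL2 ranged from 2.39 to 10.5 (median 5.62) and JUNB from 2.77 to 9.51 (median 3.99). Both factors were strongest at the same 3 places on the lower-coordinate side: chr20:56554556-56555699 (FOSL2 10.5, JUNB 8.14), chr20:56606213-56607393 (10.2 and 9.51) and chr20:56626160-56627054 (7.75 and 5.80). On the other side of the gene, shared regions were weaker, 6.70, 3.52 and 3.87 for FOSL2. A JUNB region of 2.97 without FOSL2 was at 0.854 kb from the lower-coordinate end, and a shared one of 5.62 and 3.61 lay 2.45 kb inside the other end.

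RUNX1, a DNA-binding partner of CBFB that is active in hair follicle stem cells, had 16 FOSL2 and 13 JUNB summits inside the gene. FOSL2 ran from 2.10 to 10.4 (median 5.87) and JUNB from 2.55 to 8.74 (median 5.20). The highest region of both factors was the same, chr21:34982793-34984009 (FOSL2 10.4, JUNB 8.74), inside the gene and 66.1 kb from its higher-coordinate end. FOSL2 was next highest at chr21:34900266-34901032 (9.71) and chr21:35046984-35048254 (9.17), the latter 1.59 kb inside the higher-coordinate end, and JUNB at chr21:35063450-35064170 (8.65) and chr21:34807263-34808519 (7.65). The 5 shared regions between positions 34878657 and 34915626 made a second close group. In the whole list, 5.85% of shared FOSL2 regions began a 50-kb stretch with at least as many. The group was the fullest of those begun at the RUNX1 shared regions, so this share is not the rate for a locus. RUNX1 also held the strongest JUNB region without FOSL2 at any of the loci, chr21:34845629-34846158 at 7.46. At the lower-coordinate end, the nearest regions were an unshared FOSL2 region of 3.11 at 10.7 kb and a shared JUNB region of 7.65 at 19.9 kb.

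**Figure D4:**
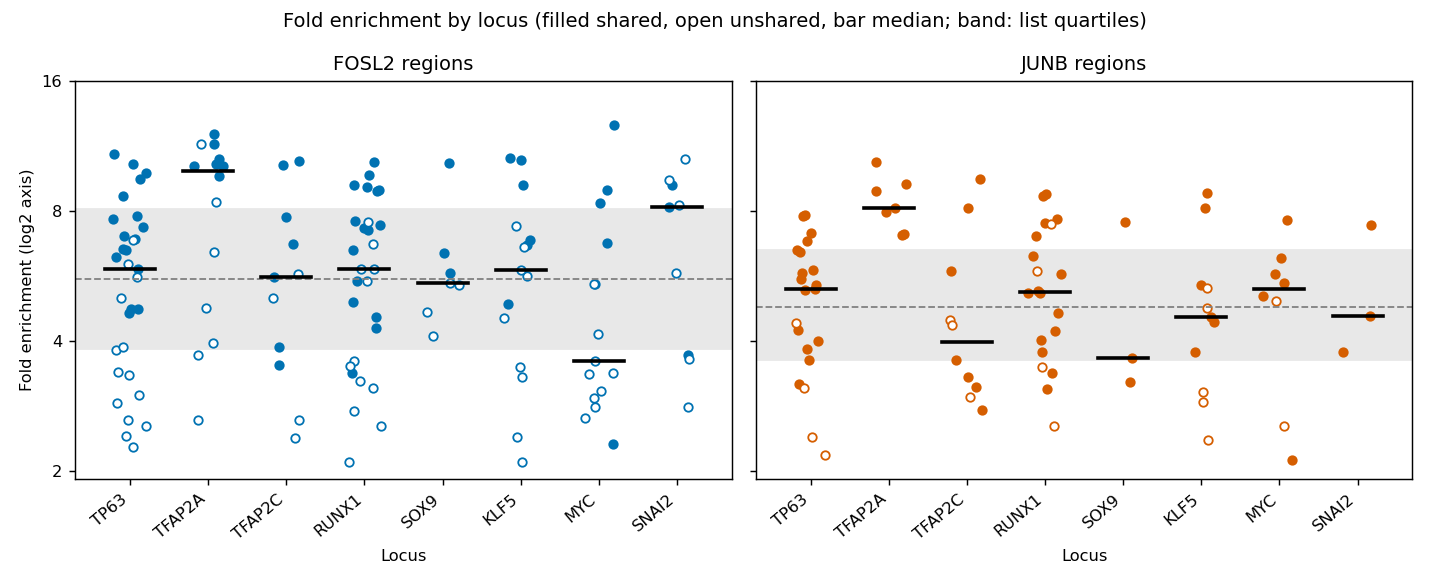
Fold enrichment of each region (y axis, log2 scale) by locus (x axis), FOSL2 left and JUNB right, with filled points for shared and open points for unshared regions, a black bar at each locus median, a dashed line at the list median and a grey band from the lower to the upper quartile of the list. TFAP2A stands highest in both panels (medians 9.90 and 8.12), and MYC is lowest for FOSL2 (3.59).

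SOX9, which maintains hair follicle stem cells and is better known from cartilage (chr17:72121020-72126416), had the fewest FOSL2 regions of the 8 loci and, with SNAI2, the fewest JUNB regions. Its 7 FOSL2 regions had fold enrichments of 5.40, 5.45, 4.11, 6.39, 5.76, 4.66 and 10.3 from low to high coordinate. The 3 JUNB regions, of 3.65, 3.22 and 7.53, were all shared. SOX9 had 3 of the 5 FOSL2 summits at gene ends. They lay 322 bp from the lower-coordinate end (5.45, unshared) and 485 and 327 bp from the other end, where a JUNB summit lay at 293 bp. The strongest region of both factors was chr17:72151112-72152366 (FOSL2 10.3, JUNB 7.53), 25.3 kb beyond the gene. From there to the edge of the window no further region was listed.

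KLF5, a zinc-finger factor of proliferating epithelia (chr13:73054976-73077538), had its strong shared binding just beyond the higher-coordinate end and JUNB regions of its own inside. FOSL2 ran from 2.10 to 10.6 (median 5.85) and JUNB from 2.36 to 8.81 (median 4.54). The strongest were chr13:73090223-73091546 (FOSL2 10.6, JUNB 8.81) and chr13:73095926-73096940 (10.5 and 8.11), followed for FOSL2 by chr13:73080991-73081907 (9.18, JUNB 3.77) at 3.90 kb from the end. All 3 belonged to a group of 5 shared regions within 47.2 kb, which began 1.25 kb inside the lower-coordinate end with a region of 6.66 for FOSL2 and 4.43 for JUNB. The next JUNB region by strength was chr13:73162997-73163957 (5.38). Inside the gene, 4 JUNB regions of 2.36, 3.05, 2.89 and 4.76 had no FOSL2 region, and FOSL2 had 1 unshared region there, of 5.85. The fifth unshared JUNB region, of 5.30, lay 94.3 kb below the gene inside PIBF1.

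MYC, the growth regulator of dividing cells (chr8:127735434-127742951), combined the highest FOSL2 density of the loci with the lowest median fold enrichment. Its 15 FOSL2 regions ran from 2.31 to 12.7 with a median of 3.59, which was above only 3.13% of genes, and 8 of them were under 4. JUNB, with 8 regions from 2.12 to 7.61, had a median of 5.27 and did not share this low position. The strongest FOSL2 region of all 8 loci was at MYC, chr8:127831155-127832291 (12.7, JUNB 7.61), 88.8 kb beyond the gene and inside the non-coding gene PVT1. FOSL2 was next at chr8:127809322-127810680 (8.96) and at chr8:127742606-127743604 (8.36), the latter with its summit 277 bp beyond the higher-coordinate end of MYC. JUNB was next highest at chr8:127667999-127669315 (6.23) and chr8:127809439-127810667 (5.71). At the lower-coordinate end only JUNB had a region, of 2.55 at 721 bp, and the nearest FOSL2 summit to that end was at 7.79 kb.

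MYC was also the locus with the lowest median FOSL2 −log10 q, the authors' significance from the peak caller, at 19.0, but it stood less far down on this measure than by fold enrichment. The −log10 q had a median of 14.3 (range 3.39 to 39.8) over the 8 MYC regions under a fold enrichment of 4, and 7.49 (quartiles 5.20 and 10.2) over all such FOSL2 regions of the list. The median MYC region stood at the 20th percentile of the list by fold enrichment and at the 38.6th by −log10 q. At 12 of 15 MYC regions −log10 q was above the list median for the same fold enrichment, and so it was at 22 of 31 TP63 regions, 10 of 11 TFAP2C regions, 6 of 7 SOX9 regions, 10 of 15 KLF5 regions, 6 of 9 SNAI2 regions and 14 of 28 RUNX1 regions. At TFAP2A it was above at 5 of 14. MYC was therefore not alone in this. By the median percentile, TFAP2A was highest and MYC lowest of the 8 loci on both measures.

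**Figure D5:**
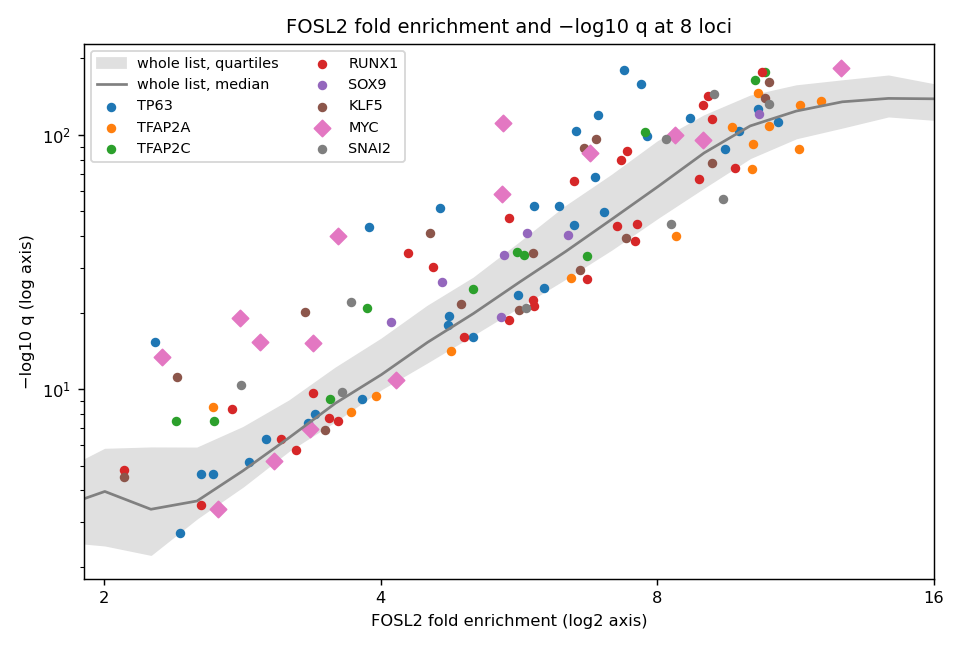
FOSL2 fold enrichment (x axis, log2 scale) and −log10 q (y axis, log scale) of the regions at the 8 loci, over the median (line) and quartiles (band) of the whole FOSL2 list at each fold enrichment. Most MYC regions (diamonds, 12 of 15) lie above the line, and at TFAP2A 5 of 14 points do.

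SNAI2, a repressor of the Snail family found in basal keratinocytes and migrating epithelium (chr8:48917598-48921429), had few regions, several of them strong FOSL2 regions without JUNB. Its 9 FOSL2 regions had a median of 8.16, from 2.82 to 10.6, and its 3 JUNB regions were 3.78, 4.57 and 7.44. The strongest FOSL2 region, chr8:48864319-48865625 (10.6), lay 52.5 kb below the gene and was unshared, as were chr8:48934147-48934901 (9.44) and a region of 8.27 on the other side. These made 3 of the 5 unshared FOSL2 regions over a fold enrichment of 8 at the loci, and the other 2 (11.4 and 8.39) were at TFAP2A. Such strong unshared regions were 5 of 65 unshared FOSL2 regions at the loci (7.69%) and 9.82% in the list, so their share as a whole was not high. The shared region nearest SNAI2, chr8:48923050-48924050 (FOSL2 9.21, JUNB 7.44), had its summits 2.13 and 2.14 kb beyond the higher-coordinate end.

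Closest inside the 100 kb limit was an unshared FOSL2 region at SNAI2, 98.9 kb from the gene with a fold enrichment of 3.63. Closest outside were a FOSL2 region of 2.90 and a JUNB region of 3.18 at RUNX1, both 100.4 kb away and shared. At SOX9 the first beyond the limit was a shared one of 9.73 for FOSL2 and 6.76 for JUNB at 112.1 kb.

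Other genes were read with the same window for comparison. Among 19 family members and partners of the 8 genes, 18 had regions of each factor, with TFAP2D, an AP-2 gene, at 0 for both, and the median was 40.5 FOSL2 and 33.1 JUNB regions per Mb. RUNX2 (23 and 14 regions), KLF6 (19 and 10) and CBFB (17 and 12) had the most, and TFAP2B had 1 of each, while TFAP2A and TFAP2C had 14 and 11 FOSL2 regions. Of 12 other transcription factors of basal keratinocytes or epithelial progenitors, all 12 had both, with medians of 48.8 and 40.9 per Mb. TEAD1, a partner of YAP, had 31 and 22, beside 31 and 21 at TP63. All 7 keratinocyte structural genes, such as KRT14 with 25 and 24 regions, lay above the all-gene median for both factors (medians 58.9 and 46.3 per Mb). Of 16 lineage factors of other cell types, 15 had regions and POU3F2, a neuronal factor, had none of either factor. Their medians were 30.9 and 14.6 per Mb, and 7 lay above the all-gene median for each factor. MITF, the melanocyte factor, had 16 FOSL2 and 4 JUNB regions, and TCF7, a T cell factor, had 15 and 12. Of the 8 members, 7 were above the all-gene FOSL2 median and 6 above the JUNB median. The lists are small, were chosen by hand and overlap in density, and no test was made between them.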

How the data were processed

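Binding was measured in HaCaT cells by ChIP-seq, with 3 libraries for each of FOSL2 and JUNB made by ChIPmentation, per the labels' protocols. The submitters' processing notes name Bowtie2, SAMtools 1.8, Picard 1.89, MACS2, deepTools and hg38 without order or options, and neither the rule that combined the libraries nor the control is given in the sources used here. Per factor, 1 deposited list named as a conservative overlap was used. The deposited score per region is a whole number and was not used for ranking. The deposited fold enrichment is a linear ratio written by the authors' peak caller for each region. Significance stands as deposited −log10 p and −log10 q, and the deposited summit offset gave the summit. In the FOSL2 list, 75704 regions were listed and 1 outside the chromosomes used was left out. Depth per library was unknown.

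From these lists, Python 3.11.15 with pandas 2.3.3, numpy 2.4.6, scipy 1.17.1 and matplotlib 3.10.9 counted regions with any base in a gene body plus 100 kb (RefSeq, GRCh38.p14), regions sharing at least 1 bp, summits within 1000 bp of a gene end, and motifs in RefSeq promoter sequences. The gene table has no strand, so ends are named by coordinate, and exons and introns were not separated. Motif searches at summits were not run because no genome sequence was used here. For each member the 3 regions of highest fold enrichment per factor and those nearest each end are named, with the regions nearest the 100 kb limit. In the other lists the genes with most regions and with none are named, and other features were named after their values were seen. The members and lists were chosen with earlier results of these data known. The 50-kb stretches, the comparison of fold enrichment with q, and the spans between neighbouring genes were added after seeing the data. No test between groups was possible with 1 list per factor. Shares have 95% Wilson intervals, which cover counting error only. Counting of overlaps was tested on simulated data. Alternatives were windows of 0, 10 and 50 kb, summit-based assignment, 2 stricter definitions of sharing, −log10 q of at least 10, other distances to ends, and leaving out each locus.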

Additional observations from a re-analysis of the deposited data

How the results depend on the processing

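Of 46 alternatives computed, 33 left their value within its interval or within 1.5 times the count, and 13 moved it. These intervals, of shares, density ratios and medians, come from the regions of 1 list and hold no spread between libraries. The alternatives reuse the same regions, so a value within its interval is not an independent check. Narrower windows held fewer regions: 42 FOSL2 and 35 JUNB regions in the gene bodies alone and 49 and 40 within 10 kb, against 130 and 83 within 100 kb. The density at the loci over that of the whole genome was 2.33 for FOSL2 and 2.81 for JUNB. For JUNB it was 4.17 in the gene bodies and 3.81 within 10 kb. The whole genome held 25 FOSL2 and 13.2 JUNB regions per Mb. Windows of all protein-coding genes with 100 kb flanks were denser, with medians of 34.6 and 19.7 per Mb. No density over all gene bodies or 10 kb windows is given, so 4.17 and 3.81 have no like background. In the gene bodies, 65.7% of JUNB regions were shared (78.3% with the flanks) and their median fold enrichment was 4.43 (5.23 with the flanks). A reciprocal overlap of 50% gave 40.8% shared for FOSL2 and 63.9% for JUNB. No share of the whole list is given for gene bodies or for this stricter overlap. The 41.1% and 78.5% of the whole lists are for 1 bp over all regions and are no background for these values. Regions with −log10 q of at least 10 had median fold enrichments of 6.68 for FOSL2 and 5.83 for JUNB. With ends drawn at 500 bp, 2.41% of JUNB summits were at an end in place of 6.02%. Leaving out any 1 locus moved the share of shared regions no further than to 48% for FOSL2 and 81.9% for JUNB. A narrower window holds fewer bases, and a stricter overlap or a shorter limit for ends can only lower a share. In the whole FOSL2 list the median −log10 q was 3.36 near a fold enrichment of 2.25 and 108 near 10.1. For JUNB these medians were 2.09 and 69.1. Otherwise the cause of these shifts was not tested.

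No paired analysis was possible because each factor has 1 list for its 3 libraries, and for the same reason no library was left out in turn. Sequencing depth, control signal and copy number behind each fold enrichment were not analysed here. At a locus with few regions, such as SOX9 or SNAI2, absent binding and binding below the threshold of the peak caller cannot be told apart.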

Other observations

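The 100 kb window takes in different shares of the space around each gene. Counted from one neighbouring protein-coding gene to the next, a span added after the data were seen, SOX9 stood in 2.47 Mb between KCNJ2 and SLC39A11 with 90 FOSL2 and 53 JUNB regions, of which 83 and 50 lay beyond 100 kb. SOX9 has the longest of these spans, and its FOSL2 density there, 36.5 per Mb, was close to the 34.1 per Mb of the 100 kb window. Its JUNB density was higher in the span, 21.5 per Mb, than in the window, 14.6 per Mb. MYC, between POU5F1B and GSDMC (2.29 Mb), had 86 and 49, with 71 and 41 beyond 100 kb. RUNX1, between CLIC6 and SETD4 (1.32 Mb), had 59 and 32.

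KLF5, between PIBF1 and KLF12 (0.670 Mb), had 50 FOSL2 and 36 JUNB regions and the highest density of these spans, 74.7 and 53.8 per Mb. Its strongest region lay beyond the 100 kb window, 171.4 kb from the gene at chr13:73248322-73249464, with a fold enrichment of 11.4 for FOSL2 and 10.6 for JUNB. TP63 (39 and 26 in 0.631 Mb) and TFAP2C (37 and 23 in 0.632 Mb) stood in spans of like size. TFAP2A had 46 and 15 in 2.09 Mb, a density of 22.1 and 7.19 per Mb, and its strongest regions lay far from the gene, 13.2 for FOSL2 at 1192 kb and 10.8 for JUNB at 991 kb. SNAI2, in the shortest span of 0.319 Mb, had 12 and 4, and its strongest region of both factors, 10.96 for FOSL2 and 10.1 for JUNB, lay 128.7 kb from the gene. Which gene a distant region acts on was not measured.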
